A study of Homo sapiens with 12 samples.

Results

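Genes whose mRNAs carried eIF3 crosslinking sites in the 3'-UTR and none in the 5'-UTR or on the start codon numbered 323 of the 5975 genes listed in activated Jurkat cells. They were selected by site counts summed over 4 PAR-CLIP libraries, the EIF3A/C/B and EIF3B/C gel bands with 2 replicates each, by requiring at least 1 3'-UTR site and 0 5'-UTR and start codon sites. The study crosslinked the initiation factor eIF3 to RNA in Jurkat Clone E6-1 cells, a human T cell leukaemia line. Cells were labelled with 50 µM 4-thiouridine, added 7 hr before the activation step, and then either received PMA with ionomycin over 5 hr (activated) or no stimulus (non-activated). All were irradiated with long-wave UV at 0.2 J/cm2, after which crosslinked 4-thiouridine appears in the reads as a C in place of T. The complex was pulled down through EIF3B, and RNA came from 5 gel bands named by the subunits they hold (EIF3A/C/B, then EIF3B/C, then EIF3D/L, then EIF3F/E, and last EIF3G/E/F), with 2 biological replicates of each state. A single clonal line was used, and the labels of the replicate 2 samples stand as the depositors later corrected them.

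eIF3 is the largest of the translation initiation factors. It holds the small ribosomal subunit together with other factors and helps to bring it to the 5' end of an mRNA, so contacts with 5'-UTRs are the best known. The 3'-UTR follows the stop codon and carries elements that set the stability, localization and translation of an mRNA. A site is here a cluster of overlapping reads with T-to-C conversions, and only clusters of at least 7 reads entered the files. A gene that is not listed in a library may therefore still have had fewer reads there. The cluster tables give genes and regions but no cluster positions, so no target sequence is printed.

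Uniquely aligned reads were 1148037 and 1163754 in the activated EIF3A/C/B libraries and 915290 and 906588 in the activated EIF3B/C libraries, and 83846 to 298205 in the other 16. Transcription profiles of both states, as the authors' mean TPM of 2 samples each, held the T cell markers CD3D, CD3E, CD3G, CD2, CD7, CD28, LCK, PTPRC, ZAP70 and LAT at 0.900 to 39.1 TPM in activated and 4.32 to 161 TPM in non-activated cells. Of 10 markers of other cells, HBB was listed at 0 in both states and 8 others were at or below 0.0932 TPM in activated and 0.252 TPM in non-activated cells. The endothelial and leukocyte marker PECAM1 was at 1.25 TPM in activated and 4.53 TPM in non-activated cells. All 10 T cell markers were thus detected in both states.

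The genes differed widely in how much they crosslinked. Reads per gene summed over the 4 libraries had a median of 35 (interquartile range 15 to 91), and 72 genes had at least 100. The 20 genes with the most reads held 17628 of 36133 reads, or 48.8%. There were 1277 3'-UTR sites, 51.6% of the 2477 sites of these genes. Coding exons held 849 sites, introns 226, stop codons 34, and 91 fell in no region column of the tables. In 151 genes every called site lay in the 3'-UTR, whereas 146 also had coding or stop codon sites and 48 also had intron sites. A single 3'-UTR site was the basis of membership for 121 genes, and 30 genes had at least 10.

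TNRC18, which encodes a large chromatin-associated protein with a BAH domain, had the most reads, with 1291 and 1251 in EIF3A/C/B and 677 and 854 in EIF3B/C. The counts of both bands did not overlap, and the band with more reads was also the one with more uniquely aligned reads. Its 3'-UTR held 18 of 179 sites and its coding exons 150. TAP1, a subunit of the transporter that supplies peptides to MHC class I, followed with 466 and 439 reads in EIF3A/C/B and 132 and 108 in EIF3B/C. Of its 24 sites, 22 were coding and 2 were in the 3'-UTR. These 2 genes were thus listed with mostly coding sites.

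FOXK1, a forkhead transcription factor, had the most 3'-UTR sites of the 323 genes, 73 of its 83. They were called in every library, 13 and 17 in EIF3A/C/B and 19 and 24 in EIF3B/C. Reads were 244 and 256 in EIF3A/C/B against 239 and 289 in EIF3B/C, so the ranges overlapped before scaling to depth. Its annotated 3'-UTR is 8978 nt long and its annotated 5'-UTR 14 nt (GENCODE 44 canonical transcript). GRAMD4, a GRAM domain protein with a reported role in apoptosis, had 40 of 42 sites in the 3'-UTR, with 163 and 153 reads in EIF3A/C/B and 123 and 132 in EIF3B/C. NACC1, a BTB domain transcriptional regulator, had 37 of 54, with 237 and 227 reads in EIF3A/C/B and 188 and 156 in EIF3B/C. STAT5A and IKZF1 had 29 3'-UTR sites each. STAT5A transduces cytokine receptor signals and had 186 and 180 reads in EIF3A/C/B and 184 and 193 in EIF3B/C. IKZF1, the lymphoid factor Ikaros, had 98 and 89 reads in EIF3A/C/B and 199 and 147 in EIF3B/C, more in both libraries of the band with fewer uniquely aligned reads.

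**Figure D1:**
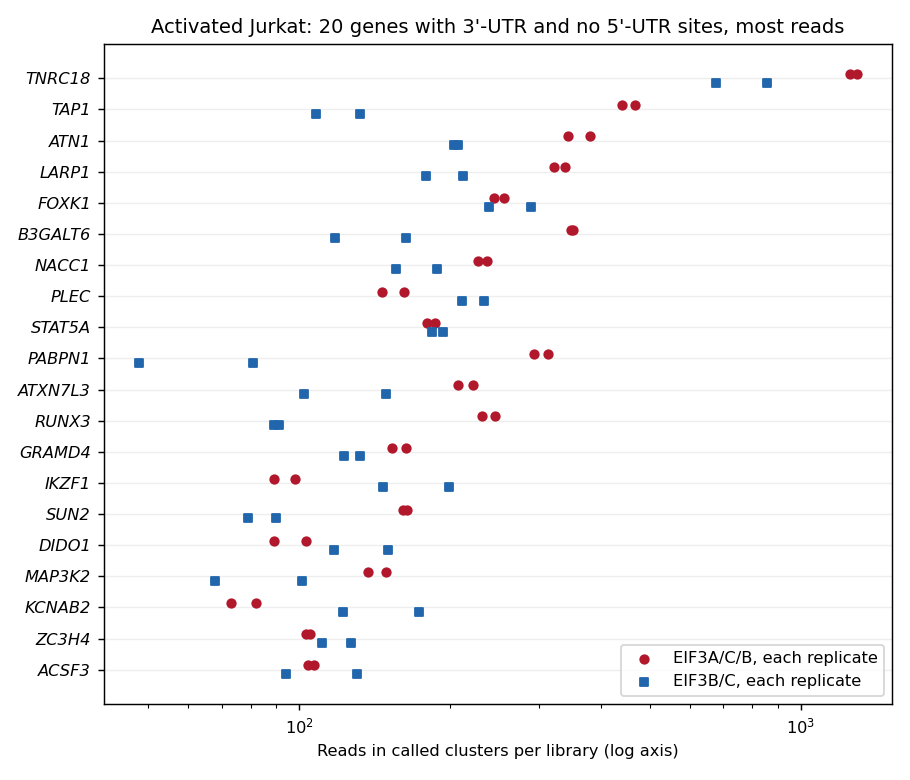
Reads in called clusters (log axis) in each of the 2 activated EIF3A/C/B libraries (red circles) and 2 activated EIF3B/C libraries (blue squares) for the 20 genes with the most reads, as raw reads that are not scaled to depth. TNRC18 stands above the rest with 677 to 1291 reads, and IKZF1 and PLEC are among the genes with more reads in EIF3B/C.

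Other genes near the top had sites along the coding region or in introns. B3GALT6, a galactosyltransferase of glycosaminoglycan linkers, had 15 3'-UTR and 35 coding sites, with 348 and 351 reads in EIF3A/C/B and 118 and 163 in EIF3B/C. PLEC, the cytolinker plectin, had 10 3'-UTR and 50 coding sites, with 146 and 162 reads in EIF3A/C/B and 211 and 233 in EIF3B/C. PABPN1, the nuclear poly(A) binding protein, had 7 and 14, with 294 and 313 reads in EIF3A/C/B and 48 and 81 in EIF3B/C. DIDO1, a PHD finger protein, had 2 and 23, and the zinc finger protein ZC3H4 had 9 and 16. Introns held 15 of 17 sites in ATN1, the gene of the transcriptional corepressor atrophin, 12 of 17 in RUNX3, a Runt domain factor of T cells, 25 of 26 in the kinase gene MAP3K2, 19 of 39 in LARP1, a regulator of TOP mRNAs, and 18 of 36 in ACSF3, an acyl-CoA synthetase. SUN2, a nuclear envelope protein, had 10 3'-UTR and 8 intron sites, and KCNAB2, a potassium channel subunit, had 27 and 10. For 14 of the 323 genes intron sites outnumbered 3'-UTR sites, and these genes held 13.4% of the reads. ATXN7L3, a subunit of the SAGA deubiquitinase, had 16 3'-UTR sites and 20 in no region column.

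**Figure D2:**
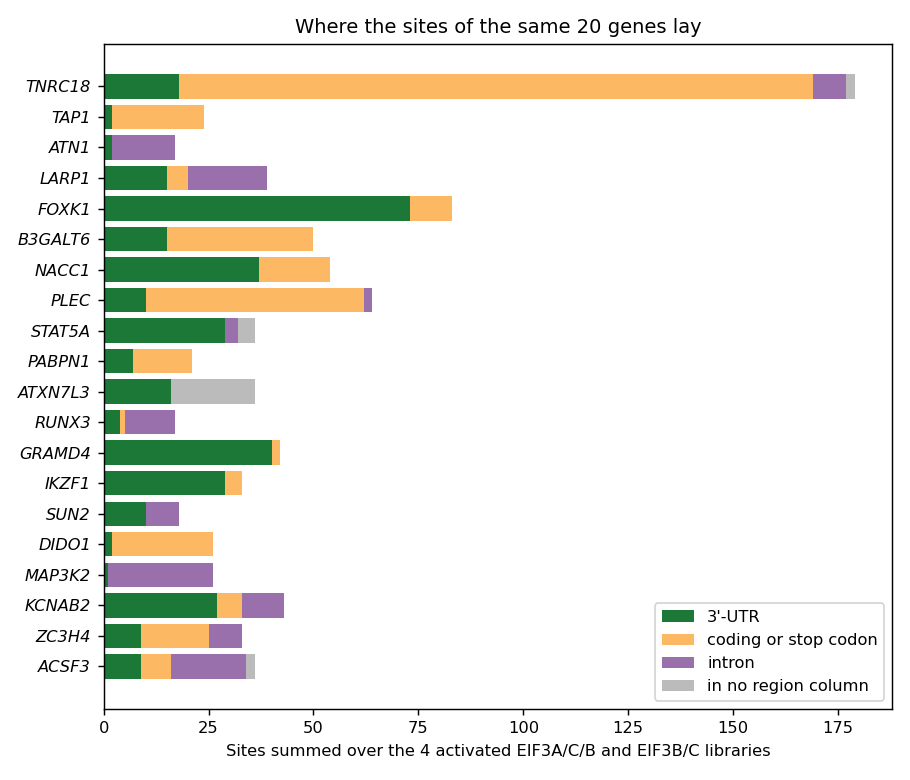
Number of called sites summed over the 4 activated libraries for the same 20 genes, stacked by region (green 3'-UTR, orange coding or stop codon, purple intron, grey no region column). FOXK1 has 73 3'-UTR sites of 83, TNRC18 has 150 coding sites of 179, and MAP3K2 has 25 intron sites of 26.

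The rule passed genes with very few sites on one side and excluded genes with few 5'-UTR sites on the other. Just inside it stood MAP3K2, LPAR5 and KRT10, each with 1 3'-UTR site and 455, 355 and 285 reads in all. LPAR5, a lysophosphatidic acid receptor, had 22 coding sites, and KRT10, a keratin, had 6. Just outside stood DYRK1A, a kinase, with 3 3'-UTR sites, 1 5'-UTR or start codon site and 4014 reads, PTPN7, a phosphatase of lymphocytes, with 38, 1 and 1022, and the glycolytic enzyme ENO1 with 4, 1 and 947. DYRK1A had 28 sites, 2 of them coding and none in introns, so most of its sites lay in no region column. In all, 91 genes had a 3'-UTR site and exactly 1 5'-UTR or start codon site, with a median of 84 reads, and 121 had exactly 1 3'-UTR site and none of the others, with a median of 11. The tables also record a category per gene, and for 5 genes (ACSF3, CMTM3, TRAF2, C1orf159 and PLCG1) it named a 5'-UTR and intron junction that enters no region column.

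Membership went with reads per gene, a measure tied to the rule. These reads include those of any 5'-UTR cluster, which would exclude the gene. A cluster needs at least 7 reads, so genes near that minimum had no room for a second one. The trend is therefore partly fixed by the rule. Among all 1138 genes with a 3'-UTR site, those without a 5'-UTR or start codon site made up 28.4%. The share was 89.3% (109 of 122, Wilson 95% interval 82.6 to 93.7) among genes with 7 to 19 reads, 35.3% (61 of 173) with 50 to 99 reads and 5.79% (14 of 242, 3.48 to 9.48) with 500 or more. Intervals cover counting error only. The 14 genes of the deepest class run from TNRC18 to IKZF1 in the plot of reads by gene. What part of the absent 5'-UTR sites lies below the 7-read minimum was not tested.

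**Figure D3:**
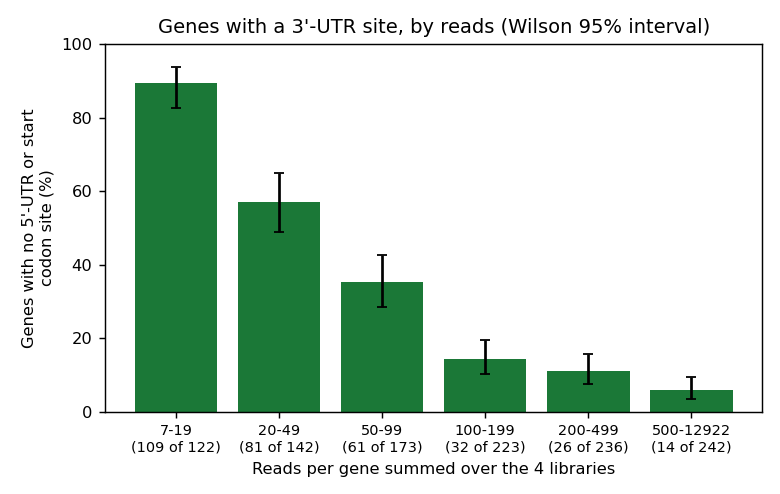
Share of genes with a 3'-UTR site that had no 5'-UTR or start codon site (y axis, percent), by reads per gene summed over the 4 activated libraries (x axis), with Wilson 95% intervals and the number of genes under each bar. The share is 89.3% in the class with the fewest reads and 5.79% in the class with the most. Reads per gene include those of any 5'-UTR cluster, so the x axis is tied to the rule.

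Replicates placed most, but not all, of these genes alike. The rule applied to replicate 1 alone found 294 genes, and 187 of them (63.6%, Wilson interval 58.0 to 68.9) also met it in replicate 2. Of the others, 41 were not listed in replicate 2, 42 had a 5'-UTR or start codon site there and 24 had neither kind of site. In the other direction 187 of 304 genes (61.5%, 55.9 to 66.8) met it again. Genes with both UTR classes in replicate 1 met that description again in 486 of 648 cases. Of the 323 genes, 116 were listed in all 4 libraries, 56 in 3, 75 in 2 and 76 in 1. Reads of genes listed in both replicates correlated across genes with r = 0.93 in EIF3A/C/B (193 genes) and r = 0.85 in EIF3B/C (152 genes) on the log2 scale. These points share libraries and depth, and genes are not independent replicates. The replicates differed beyond counting noise, with a chi-square per degree of freedom of 1.61 for EIF3A/C/B and 3.63 for EIF3B/C, so they were treated as separate libraries.

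The 323 genes were then followed in the 16 libraries that the rule did not use. In all, 45 were listed in at least 1 of them, 19 with a 3'-UTR site and 2 with a 5'-UTR or start codon site. Activated EIF3D/L listed 33 of the genes, 15 in both replicates, and none had a 5'-UTR or start codon site in those libraries. Of the genes with sites in both UTRs, 75.8% of 256 and 78.4% of 319 had one in the 2 EIF3D/L replicates. Of those with coding sites only, a class also chosen for lacking 5'-UTR sites, 18.8% of 16 and 6.25% of 32 had one. Among the 323 genes, 19 and 29 were listed in these replicates, 8 and 10 of them with no mRNA site. These libraries are other gel bands of the same immunoprecipitates, so they do not stand for other cultures. STAT5A had 11 and 38 reads in activated EIF3D/L, with 1 and 4 sites, all in the 3'-UTR. NACC1 had 8 and 10 reads and 1 3'-UTR site in each replicate. APOBEC3D, a cytidine deaminase of antiviral defence, had 22 and 19 reads and likewise 1 3'-UTR site in each. TNRC18, with 26 and 92 reads, had 2 and 9 coding sites there and no 3'-UTR site. ATN1 (43 and 45 reads) and RUNX3 (16 and 29) had intron sites only. Activated EIF3F/E listed 4 of the genes and activated EIF3G/E/F 5, none with a UTR site.

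Non-activated EIF3B/C listed 19 of the genes, and both of the 5'-UTR or start codon sites were found there, in replicate 2. KCNAB2 had 15 reads there in 2 sites, 1 in the 5'-UTR or start codon and 1 in the 3'-UTR, and RCC1, the nucleotide exchange factor of Ran, had 7 reads in 1 5'-UTR or start codon site. RCC1 was chosen for naming after its values were seen. The 6 genes listed in both non-activated EIF3B/C replicates were ATN1 (38 and 56 reads), LARP1 (35 and 57), HSPB1, a small heat shock protein (7 and 25), TNRC18 (12 and 10), TMCO1, a calcium channel of the endoplasmic reticulum (8 and 14), and MYO7B, a myosin (7 and 10). None of the 6 had a 3'-UTR site in these libraries. ATN1 and LARP1 had 3 intron sites in each replicate, and were also the only 2 of the 323 genes listed in non-activated EIF3A/C/B, with 1 intron site each.

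Reads were compared between activated and non-activated EIF3B/C with edgeR's quasi-likelihood test (2 libraries against 2, Benjamini-Hochberg adjustment, adjusted p under 0.05). The selected genes had to be listed in activated libraries, so they were bound to lie high in this comparison. Genes needed at least 20 reads in 1 of these 4 libraries, and 101 of the 323 were tested. Of these, 61 were higher and 0 were lower in activated cells (edgeR), beside 40.9% higher and 2.47% lower among all 2188 genes tested. In either direction 72 of the 101 had an unadjusted p under 0.05 (edgeR), beside 1167 of the 2188. TNRC18 was the called gene listed in every library, with 677 and 854 reads in activated cells, against 12 and 10 in non-activated cells, a log2 fold change of 4.16 ± 0.37 (SE, edgeR adjusted p = 0.0234). FOXK1 (239 and 289 reads), PLEC (211 and 233), STAT5A (184 and 193), IKZF1 (199 and 147) and NACC1 (188 and 156) were called higher in activated cells and were listed in neither non-activated library, so no fold change is given. ATN1 had 203 and 207 reads in activated cells, against 38 and 56 in non-activated cells, which at the depth of the libraries is a log2 difference of 0.22 ± 0.18 (SE, edgeR adjusted p = 0.37). LARP1 had 179 and 212 reads in activated cells, against 35 and 57 in non-activated cells, a log2 difference of 0.20 ± 0.20 (edgeR adjusted p = 0.47). With a replicate block none of the 101 was called, and with either activated library left out none of the 83 that could still be tested.

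Activated EIF3D/L had depth close to that of non-activated EIF3D/L, 200340 and 249762 uniquely aligned reads against 187745 and 178444. mRNA made up 49.2% and 49.3% of these reads in activated cells, against 12.6% and 12.5% in non-activated cells. Only 7 of the genes reached 20 reads, and 6 were higher and 0 lower in activated cells (edgeR), beside 74.5% higher and 0.232% lower of 431 genes tested. At an unadjusted p under 0.05 (edgeR) there were 6 of the 7, beside 335 of the 431. With library sizes from mRNA reads 6 of the 7 were again higher, beside 203 genes higher and 12 lower of the 431, and with TMM scaling also 6, beside 206 higher and 12 lower. They were ATN1, TNRC18, RUNX3, STAT5A, APOBEC3D and COX7A2, a cytochrome c oxidase subunit, with 21 and 18 reads in activated cells. None was listed in a non-activated EIF3D/L library. The members tested had passed through the activated group, so their count gives no support of its own. With a replicate block none of the 7 was called, and without activated replicate 1 or 2 none of the 5 or 4 that could still be tested.

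Between the bands of activated cells, EIF3A/C/B over EIF3B/C, 146 of the 323 genes could be tested. All 3405 genes tested had a median log2 difference of 0.59 on the scale of uniquely aligned reads, and the 146 had a median of 0.22. Of these 146, 7 were higher and 7 were lower in EIF3A/C/B (edgeR, adjusted p under 0.05), beside 7.46% higher and 2.53% lower among all genes tested. Both bands of a replicate belong to 1 labelled sample, however. The fit with that pairing as a replicate block called none of the 146 and none of the 3405 genes (28 and 756 at an unadjusted p under 0.05, edgeR). In that fit the 14 genes kept their direction, with edgeR adjusted p from 0.148 to 0.249, so the calls below hold only for the fit without the block. The reads that chose the genes are the ones compared, so these values describe them. Higher in EIF3A/C/B without the block were TAP1 (log2 1.57 ± 0.13, adjusted p = 0.0335), RUNX3 (1.06 ± 0.10, adjusted p = 0.0367) and PABPN1 (1.89 ± 0.29, adjusted p = 0.0491). RHBDD2, a rhomboid family protein, had 36 and 48 reads in EIF3A/C/B and ZNF598, a sensor of collided ribosomes, had 36 and 34, and neither was listed in EIF3B/C. C9orf69 had 50 and 49 reads in EIF3A/C/B and 7 and 10 in EIF3B/C.

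Lower in EIF3A/C/B without the block were DMPK, the myotonic dystrophy kinase, with 42 and 45 reads in EIF3A/C/B and 121 and 131 in EIF3B/C (log2 -1.88 ± 0.13, adjusted p = 0.0332), and AGAP2, an ARF GTPase activator, with 18 and 16 against 61 and 44 (log2 -1.96 ± 0.28, adjusted p = 0.0453). PLEC was lower by a smaller amount (log2 -0.87 ± 0.11, adjusted p = 0.0446), as was IKZF1 (log2 -1.23 ± 0.20, adjusted p = 0.0497). BBC3, the proapoptotic BH3-only protein PUMA, had 39 and 33 reads in EIF3B/C and was listed in neither EIF3A/C/B library, as was the chromatin remodeller CHD3 with 46 and 32. With TMM scaling the median of all genes was 0.26 and that of the 146 genes -0.12, and 3 of the 146 genes were higher and 12 lower (108 and 172 of all genes, against 254 and 86 on uniquely aligned reads). With no filter on low reads none of the 323 genes was called, and without EIF3A/C/B replicate 1 or 2 none of the 137 or 130 that could still be tested.

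**Figure D4:**
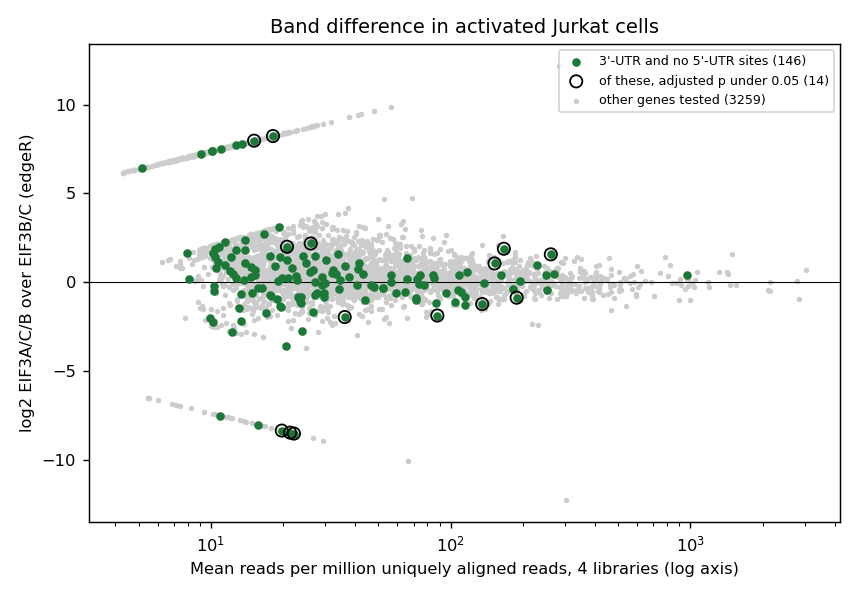
Log2 difference of reads, EIF3A/C/B over EIF3B/C (y axis, edgeR), against mean reads scaled to library size over the 4 activated libraries (x axis, log axis), for all 3405 genes tested, with the 146 genes with 3'-UTR and no 5'-UTR sites in green and the 14 with an adjusted p under 0.05 in the fit without a replicate block circled. The oblique strips at the top and bottom are genes not listed in one band, whose plotted difference depends on the prior count, and the middle cloud of green points has TAP1 at 1.57 and DMPK at -1.88.

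Site placement also differed by band. In the 323 genes, 3'-UTR sites made up 53.2% and 53.8% of the mRNA sites in EIF3A/C/B and 65.8% and 64.4% in EIF3B/C. In the 815 genes with sites in both UTRs these shares were 30.3% and 31.5% in EIF3A/C/B and 40.6% and 40.2% in EIF3B/C. The 3'-UTR share of all mRNA reads had the same order, 19.7% in both EIF3A/C/B libraries and 27.8% and 27.9% in EIF3B/C. EIF3A/C/B listed 255 of the 323 genes and EIF3B/C 258, with 190 in both bands. With 2 libraries a band, an exact test over libraries cannot reach p = 0.05, so none was run.

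Sites of the 323 genes held fewer reads than those of genes with sites in both UTRs, with close T-to-C fractions. Reads per site had a median of 9.43 (interquartile range 8.00 to 11.8), beside 16.1 in genes with sites in both UTRs and 13.0 in genes with 5'-UTR and no 3'-UTR sites. In genes with coding sites only the median was 9.75 (8 to 12.8), close to that of the 323 genes. The median T-to-C fraction per gene was 0.88 and 0.88 in EIF3A/C/B and 0.88 and 0.89 in EIF3B/C, beside 0.86 and 0.87 in EIF3A/C/B and 0.89 and 0.89 in EIF3B/C for genes with sites in both UTRs. The lowest fractions among the genes with the most reads were those of PABPN1, 0.77 and 0.76 in EIF3A/C/B and 0.69 and 0.74 in EIF3B/C. The share of reads in the deposited column of unique reads had a median of 87.2%, beside 79.8% in genes with sites in both UTRs.

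The selection did not use the length or G+C content of annotated UTRs, but it asked for 0 5'-UTR sites and at least 1 3'-UTR site. A short UTR has less room for a site, so UTR lengths are not independent of the selection. Of the 323 symbols, 299 (92.6%) matched a canonical protein-coding transcript of GENCODE 44. Their 5'-UTRs had a median length of 118 nt (interquartile range 55 to 252), beside 192 nt in 767 genes with sites in both UTRs, 174 nt in 3039 genes with 5'-UTR and no 3'-UTR sites and 64 nt in 477 genes with coding sites only. In 67 of the 299 genes (22.4%) the 5'-UTR was under 50 nt, against 6.91% with sites in both UTRs, 8.42% with 5'-UTR and no 3'-UTR sites and 42.1% (201 of 477) with coding sites only. PABPN1 (13 nt) and FOXK1 (14 nt) are examples, whereas TNRC18 (637 nt) and MAP3K2 (589 nt) have long ones. The 3'-UTRs had a median length of 1579 nt, beside 1469 nt with sites in both UTRs, 1380 nt with 5'-UTR and no 3'-UTR sites and 980 nt with coding sites only. Their G+C content had a median of 54.7% (48.8 to 59.7), beside 51.0% with sites in both UTRs, 39.2% with 5'-UTR and no 3'-UTR sites and 44.9% with coding sites only. PLEC (64.8%), KCNAB2 (62.3%) and NACC1 (61.4%) had G+C rich 3'-UTRs, and MAP3K2 (33.3%) and DIDO1 (35.8%) did not. Across the 299 genes, the number of 3'-UTR sites and the length of the 3'-UTR had a log2 correlation of r = 0.20, given as a description.

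**Figure D5:**
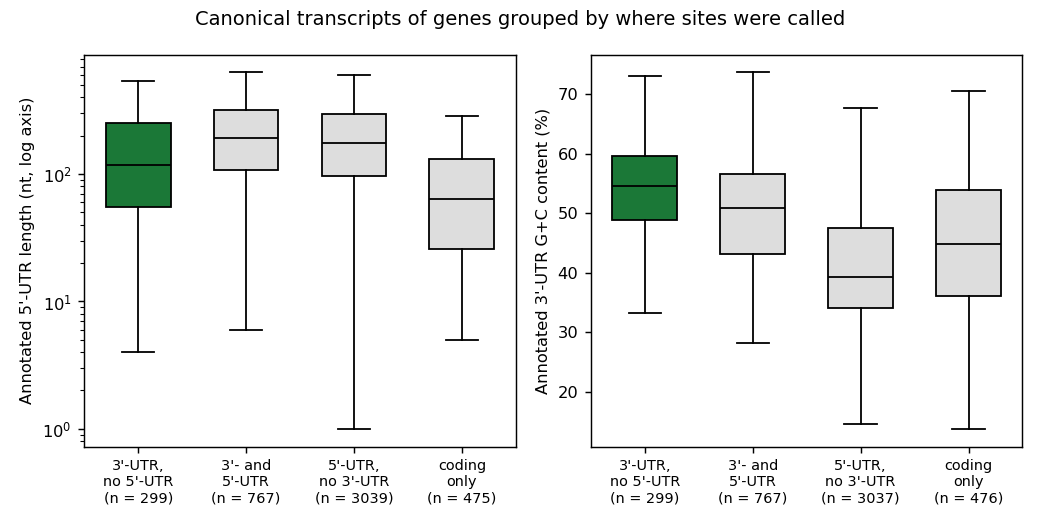
Annotated 5'-UTR length (left, nt, log axis) and 3'-UTR G+C content (right, percent) of GENCODE 44 canonical transcripts, for genes grouped by where sites were called, with boxes for the interquartile range, lines for the median and whiskers to 1.5 interquartile ranges, outliers not drawn. The green box of genes with 3'-UTR and no 5'-UTR sites has a median 5'-UTR of 118 nt and a median G+C content of 54.7%.

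By function, the genes spread over many groups, and 214 of 323 were in none of 20 lists. Genes with any site in an mRNA region were members in 6.50% of cases (323 of 4967), and those with a 3'-UTR site, the only ones that could meet the rule, in 28.4% (323 of 1138). Each list is given on both counts, and some lie on different sides of these values. Chromatin regulators gave 20 of 107 listed genes (18.7%) and 20 of 48 with a 3'-UTR site (41.7%), with ATXN7L3, DIDO1, JARID2 and ING5 at the head. JARID2, a partner of the Polycomb methyltransferase, had 75 and 48 reads in EIF3A/C/B and 114 and 106 in EIF3B/C, with 4 3'-UTR and 21 coding sites. ING5, a subunit of histone acetyltransferase complexes, had 91 and 79 in EIF3A/C/B and 79 and 68 in EIF3B/C, with 14 3'-UTR and no coding sites. Genes of tRNA modification and ribosome biogenesis gave 10 of 51 (19.6%) and 10 of 13 with a 3'-UTR site (76.9%). TRMT112, an activator of methyltransferases, had 44 and 55 reads in EIF3A/C/B and 8 and 24 in EIF3B/C, and CTU1, a tRNA thiolase, had 35 and 27 in EIF3A/C/B and was not listed in EIF3B/C. RRP7A and ADAT3 were the other 2 with the most reads.

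Several membrane and signalling groups also had more than 1 in 10 of their listed genes here. ARFGAP1, an activator of ARF hydrolysis at the Golgi, had 22 of 23 sites in the 3'-UTR, with 61 and 59 reads in EIF3A/C/B and 76 and 64 in EIF3B/C. RAB1B, a GTPase of transport to the Golgi, had 11 of 14. ESCRT, exocyst and membrane remodelling genes gave 9 of 67 (13.4%) and 9 of 17 with a 3'-UTR site (52.9%), led by SEC16A, EXOC7, CHMP1A and GOLGA7B. EXOC7, an exocyst subunit, had all of its 10 sites in the 3'-UTR, with 11 and 18 reads in EIF3A/C/B and 49 and 25 in EIF3B/C. Glycosyltransferases gave 7 of 42 (16.7%) and 7 of 15 with a 3'-UTR site (46.7%), B3GALT6 first and then FUT4, EXTL3 and B4GALT7. Sterol and fatty acid synthesis gave 4 of 21 and 4 of 9 with a 3'-UTR site (44.4%), ACSF3, FASN, HMGCS1 and MVD. Ion channels gave 4 of 19 (21.1%) and 4 of 5 with a 3'-UTR site, KCNAB2, KCNJ14, CLCN3 and CHRNB1. The apoptosis and p53 list gave 4 of 33 (12.1%) and 4 of 13 with a 3'-UTR site (30.8%), BBC3, AEN, DEDD2 and HIPK2.

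T cell signalling and immune surface genes gave 8 of 74 (10.8%), above the value for all genes with an mRNA site, but 8 of 31 with a 3'-UTR site (25.8%), below that for all such genes. TAP1 led, followed by ZAP70, IL16 and IL4R. ZAP70, the kinase recruited to the phosphorylated T cell receptor, had 6 3'-UTR and 2 coding sites, with 30 and 17 reads in EIF3A/C/B and 33 and 29 in EIF3B/C. IL16, the precursor of a chemoattractant cytokine, had 1 3'-UTR and 5 coding sites, with 11 and 21 reads in EIF3A/C/B and 21 and 11 in EIF3B/C. Lymphoid transcription factors gave 2 of 31 (6.45%) and 2 of 14 with a 3'-UTR site (14.3%), RUNX3 and IKZF1. Ubiquitin ligase components and deubiquitinases gave 9 of 139 (6.47%) and 9 of 33 with a 3'-UTR site (27.3%), SOCS7, FBXW5, KCTD2 and FBXO31 first. ZNF genes gave 8 of 136 (5.88%) but 8 of 26 with a 3'-UTR site (30.8%), and solute carriers 4 of 72 (5.56%) and 4 of 14 (28.6%). The list of translation factors gave 2 of 39 (5.13%) and 2 of 11 (18.2%). These 2 genes on that list, EIF4A1 and EIF4EBP2, had 7 reads in 1 library each.

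Cytosolic ribosomal proteins gave 0 of 51, replication-dependent histones 0 of 63 and glycolysis 0 of 10, but these lists had only 2, 3 and 5 genes with a 3'-UTR site that could have met the rule. Splicing factors gave 1 of 106 (0.943%) and 1 of 23 with a 3'-UTR site (4.35%), DGCR14. Kinesins, actins and tubulins gave 2 of 49 (4.08%) and 2 of 17 with a 3'-UTR site (11.8%). Oxidative phosphorylation gave 3 of 75 (4.00%) but 3 of 9 with a 3'-UTR site (33.3%), COX7A2, ATP5G1 and CHCHD2.

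The summed TPM of 320 matched genes had a median of 0.601 in activated cells (interquartile range 0.346 to 1.21), beside 1.31 in 809 genes with sites in both UTRs, 0.928 in those with 5'-UTR and no 3'-UTR sites, 0.770 in those with coding sites only and 0.617 in 10381 genes with a protein-coding isoform and at least 0.1 TPM. The last value has a minimum of 0.1 TPM, which was not asked of the 320 and which 304 of them reached. With no minimum, 17678 genes with a protein-coding isoform had a median of 0.204. Of the 320, 98 had at least 1 TPM. The highest were EIF4A1, an RNA helicase of initiation, at 25.5 TPM, CHCHD2, a mitochondrial protein, at 22.6, COX7A2 at 16.5, the proteasome subunit PSMD8 at 7.40 and the adaptor SLA at 6.99. SLA, which dampens T cell receptor signalling, had 23 3'-UTR sites and 70 and 105 reads in EIF3A/C/B and 122 and 89 in EIF3B/C. EIF4A1 had a single site. Reads and the TPM of the most abundant protein-coding isoform had a log2 correlation of r = 0.16 across 319 genes, given as a description.

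Activated against non-activated, the median gene of the profiles had a log2 TPM ratio of -2.22, and changes are given relative to it. The genes tracked here had a median of -0.22 (the 238 whose TPM averaged 1 or more over both states, interquartile range -0.56 to 0.20), beside -0.13 in genes with sites in both UTRs. The median was -0.19 in genes with coding sites only and -0.02 in those with 5'-UTR and no 3'-UTR sites. By this measure 11 of the 238 were above 1 and 7 below -1. TAP1 was at 2.36 TPM in activated and 4.59 TPM in non-activated cells, or 1.29 relative to the median gene. SLA was at 6.99 and 15.2 TPM in the same order, or 1.11. IL16 was at 1.35 TPM in activated and 1.10 TPM in non-activated cells, or 2.48. GRAMD4 was at 0.837 TPM in activated and 8.64 TPM in non-activated cells, or -1.01. The files give the mean of the 2 samples only, so these ratios have no replicate error and were not tested.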

How the data were processed

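Reads and sites per gene are whole counts over called clusters that the authors deposited per library. They merged reads sharing a random barcode, mapped them to hg38 and called clusters with PARalyzer inside PARpipe (at least 7 reads per cluster). The T-to-C fraction, a median over a gene's sites, and the summed score over sites were deposited by the authors. The TPM values were deposited by the authors as means of 2 samples, made with kallisto, and their depth is unknown. The authors used earlier GENCODE releases than GENCODE 44, which gave the UTR lengths here by symbol. One member's symbol had become a date in the tables and it was left out of TPM. It and 2 clone names are counted, not named. The result of 1 gene list is not reported here.

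Sites on start codons were added to the 5'-UTR and those on stop codons to coding exons. The genes and the lists were chosen with earlier results of these data known. Named genes were the 20 with the most reads, the 5 with the most 3'-UTR sites, up to 4 per list, up to 5 called per direction, up to 5 listed in both replicates of another band, the 5 with the highest TPM, those with a 5'-UTR junction category, and 3 on each side of the rule.

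The quasi-likelihood test of edgeR 4.0.16 (R 4.3.3) compared reads, with library sizes from uniquely aligned reads (83846 to 1163754), a minimum of 20 reads in 1 library, unlisted genes as 0, and Benjamini-Hochberg adjustment over all genes tested. The test was tried on simulated data. Alternatives were DESeq2 1.42.0, TMM, no filter, library sizes from mRNA reads, leaving out each library and a replicate block. The labels place both bands of a replicate in 1 sample, which pairs the bands, although deviations of same-numbered libraries correlated with -0.02. They do not say that a number links the states. P-values measure the spread between 2 libraries a group. Log2 TPM ratios used a pseudocount of 0.1. Descriptions used Python 3.11.15, pandas 2.3.3 and scipy 1.17.1, and figures matplotlib 3.10.9.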

Additional observations from a re-analysis of the deposited data

How the results depend on the processing

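The rule gave 202 genes when at least 2 3'-UTR sites were asked for and 173 when a site had to be in both replicates of a band, against 323. It gave 235 on EIF3A/C/B alone, 373 on EIF3B/C alone, 294 to 304 when 1 replicate was left out and 318 without recorded 5'-UTR junctions. Genes called between bands numbered 14, against 37 with DESeq2 (814 of all genes, against 340), 0 with no filter on low reads (90 at an unadjusted p under 0.05, edgeR), 0 with a replicate block (28 unadjusted) and 0 to 36 when 1 library was left out. Genes called between states in EIF3B/C numbered 61, against 32 with DESeq2 (425 of all genes, against 948), 0 with a replicate block (15 unadjusted) and 0 to 75 when 1 library was left out. In EIF3D/L 6 of 7 were called, against 15 with no filter (33 genes tested, 674 of 1266 called in all). With a replicate block 0 of the 7 and 0 of all 431 were called (1 and 89 at an unadjusted p under 0.05, edgeR). When 1 library was left out, the median log2 ratio of the selected genes was 7.37 to 7.97, against 7.33. Between bands the replicate block is the pairing that the labels give. Between states the labels give none, and deviations of same-numbered libraries correlated with 0.07 in EIF3B/C and 0.16 in EIF3D/L. With 2 pairs these values cannot show whether the numbers pair the samples. The calls between states thus hold only for the fit without the block. The single genes called kept their direction under every alternative in which they were tested. The median log2 TPM ratio was -1.59 with no minimum TPM, against -0.22. The minimum also sets which genes give the reference median, so both values are relative to different references. The cause was not tested further. The median T-to-C fraction in EIF3A/C/B was 0.875 and 0.88 as a mean over sites. Having 2 libraries a group, and the 7-read minimum for a cluster, limits every call.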
